A study of Homo sapiens with 12 samples.

Results

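The regions described here are stretches of chromatin that came down with both probe sets against the long non-coding RNA SLEAR, with the highest point of the signal at nearly the same base in both sets. They were chosen from 9 lists of peaks made by ChIRP-seq in Jurkat, an established line of human leukaemic T cells. The 3 odd, 3 even and 3 lacZ libraries all came from Jurkat cells that stably expressed SLEAR, and 3 input samples were not analysed here. The labels do not say whether these cells were 1 clone or a mixed population. Overlapping peaks of the 9 lists were merged into 357901 regions. Of these, 4042 were present in 5 or all of the 6 odd and even lists and absent from the lacZ lists, which is 1.13% of all regions. In 1299 of them, 0.363% of all regions and 32.1% of the shared ones, the median odd and the median even summit lay at most 100 bases apart. The other 2743 shared regions had separate summits. Presence, absence and summit position chose the 1299 regions, so these values are a description, and only the difference between odd and even lists was tested.

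In ChIRP, chromatin is crosslinked and an RNA is pulled out of it with short biotin-labelled DNA probes complementary to that RNA, after which the co-purified DNA is sequenced. The odd and the even set pair with different parts of the same RNA, while lacZ probes pair with a bacterial RNA that human cells lack. An oligonucleotide can also pair directly with DNA or with another RNA, and such sites are particular to the oligonucleotides used. A summit is the base in a peak where most fragments pile up. If both sets bring down chromatin through the same RNA, their summits are taken to fall at the same place, whereas unrelated peaks that happen to touch need not share a summit.

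The lists held 66520 to 117481 peaks with odd probes, 90519 to 124668 with even probes and 26540 to 91111 with lacZ probes. Depth could not be read from them. Odd replicate 1 was the shortest probe list, and it was also the one that most often lacked a peak, in 305 of the 1299 regions. The other 5 probe lists lacked one in 21 to 111 of them. A peak was present in all 6 lists in 688 regions (53.0%), against 1646 of the regions with separate summits (60.01%).

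The rule bounds the distance between the median summits of the sets at 100 bases. Its median was 35 bases, and 237 regions (18.2%) had summits within 10 bases. The odd summits of a region spanned a median of 38 bases, the even summits 41 bases and the summits of both sets together 84 bases. In the regions with separate summits the odd and the even summits spanned 39 and 42 bases, about as far, while those of both sets together spanned 366 bases. The odd summit had the higher coordinate in 619 regions and the lower in 655, and in 25 both fell on the same base, so neither side was favoured. The regions had a median length of 826 bases, against 898 bases with separate summits.

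With lacZ in the place of one probe set, the same rule gave fewer close summits. Of 1494 regions shared by odd and lacZ lists and absent from even lists, 290 (19.4%) had summits within 100 bases. Of 1571 shared by even and lacZ lists and absent from odd lists, 288 (18.3%) did. The lists differed in length, with 26540 to 91111 peaks for lacZ and 66520 to 124668 for odd and even probes. In lists of equal length the share for odd and even was 26.0%, and the shares with lacZ were not computed there. The excess of the odd and even pair lay at the shortest distances. Within 20 bases it held 9.67% of its shared regions, against 3.68% for odd and lacZ and 4.01% for even and lacZ, and from 80 to 100 bases the 3 shares were 3.76%, 3.88% and 3.82%.

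**Figure D1:**
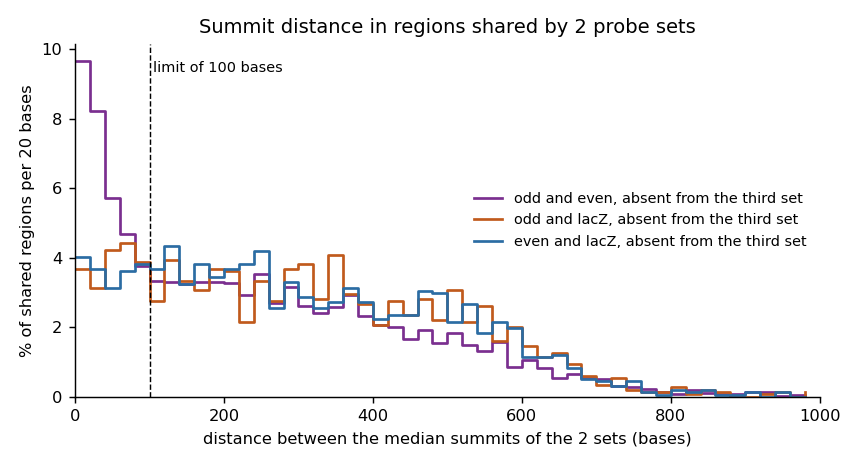
Distance in bases between the median summits of 2 probe sets (x axis, bins of 20 bases) against the percentage of the regions that the 2 sets share and the third set lacks (y axis). The odd and even line starts at 9.67% and has come down to the lines with lacZ by the dashed limit of 100 bases.

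Replicates left out of the choice also showed close summits. With regions chosen from odd and even replicates 1 and 2 alone, 1209 of 1782 with close summits also had a peak in odd and even replicate 3. In 86.0% of these 1209 the summits of replicate 3 were within 100 bases. Leaving out replicate 1 in the same way gave 84.5%, over the 889 of 2292 regions with both peaks. Leaving out replicate 2 gave 87.7%, over 1176 of 1906 regions. The other regions had no pair of summits to compare. Where the replicates used had put the summits apart, the share in the replicate left out was 5.41% to 6.91%, again over regions with both peaks. The probes are the same in each replicate, so this measures how well a position repeats within a probe set.

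Regions with close summits were more often strong with one probe set and weak with the other than regions with separate summits were. Strength is given as the percentile of a peak's fold enrichment within its own list, where 100 is the strongest peak, since the fold of different lists is not on one scale. The mean percentile was 90 or more in odd lists and under 50 in even lists in 265 regions (20.4%), where 10.9% of all shared probe regions met that rule. In 191 (14.7%) it was 90 or more in even lists and under 50 in odd lists, against 8.76% of all shared regions. The 2 patterns together made up 456 of 1299 regions (35.1%), against 339 of 2743 with separate summits (12.4%) and 19.7% of all shared regions. Both sets reached 90 in 25 regions (1.92%), a share near the 46 with separate summits (1.68%) and the 1.76% of all shared regions.

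In the 265 regions with strong odd and weak even peaks, the median fold was 76.5, 190 and 114 in odd replicates 1, 2 and 3, and 6.27, 7.56 and 6.86 in even replicates 1, 2 and 3. Their odd peaks had median lengths of 854 to 882 bases and their even peaks 332.5 to 379 bases. The 191 regions of the opposite kind had median folds of 5.52, 8.81 and 6.63 in odd lists and 120, 192 and 133 in even lists. Their odd peaks had median lengths of 326, 401 and 385.5 bases and their even peaks 904, 903 and 878 bases. A shorter, lower peak of one set thus lay at the top of a longer, higher peak of the other. Over all peaks the median lengths were 394, 362 and 348 bases in odd and 409, 400 and 366 bases in even lists. The weak odd peaks of the 191 regions were thus not short for odd replicates 2 and 3. The median fold over all peaks of a list was 9.96 to 12.3. The low peaks lay below it because the weak set was chosen by a low mean percentile of fold. Their low fold is therefore part of the rule and not a separate result. Both kinds were found on all 23 chromosomes. Within them the Spearman rho between the folds of the strong and the weak set was 0.11 over 265 and −0.03 over 191 regions, as a description. Both sets were cut by percentile to choose these regions. That narrows the range of both folds, so these values cannot show whether the 2 are related.

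**Figure D2:**
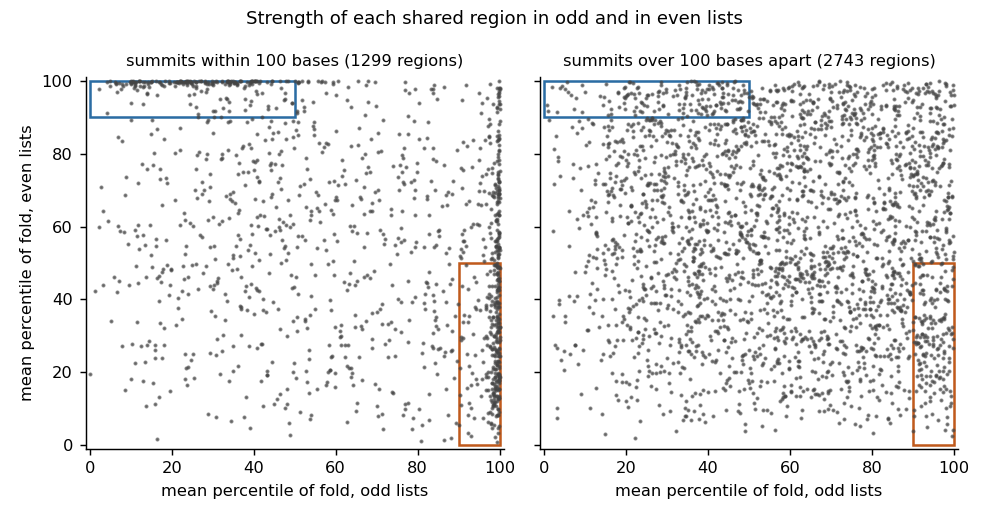
Mean percentile of fold over the odd lists (x axis) and over the even lists (y axis), 1 point per region, for close summits (left) and separate summits (right). The boxes hold regions at 90 or more in one set and under 50 in the other, 456 of 1299 on the left and 339 of 2743 on the right.

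Over the 1299 regions the odd and even percentiles ran against each other, with a Spearman rho of −0.37, against −0.08 over the 2743 regions with separate summits. These are descriptions over regions that share the same 6 libraries. Between single lists of different sets rho lay between −0.40 and −0.19, and between lists of the same set it was 0.88 to 0.95. The pattern was sharpest where the summits were closest. Of the 237 regions with summits within 10 bases, 48.1% were strong in one set and weak in the other, and the stronger set had a median percentile of 98.5 and the weaker one 34.4. From over 50 to 100 bases the share was 25.8%, and from over 100 to 200 bases 12.4%. With lacZ in the place of one set, regions with summits within 100 bases were strong in one set and weak in the other in 8.62% (odd and lacZ, 290 regions) and 11.8% (even and lacZ, 288 regions). Regions were also chosen anew with peaks covering under 50% of a region disregarded, which leaves out short peaks inside long ones. This was done in all 9 lists, so a region with a short lacZ peak could count as free of lacZ. It gave 558 regions with close summits, of which 12.5% were strong in one set and weak in the other, and rho was 0.20.

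The strongest peaks of each probe set were then followed into the other sets over all merged regions, whatever the lacZ lists showed. Among the strongest 1% of peaks of odd replicates 1, 2 and 3, 31.1%, 25.4% and 21.2% had a summit within 100 bases in at least 2 even lists, against 1.57%, 1.55% and 1.39% of all peaks of these lists. With at least 2 lacZ lists the shares of these strong peaks were 0.150%, 0.283% and 0.171% (1, 3 and 2 peaks), against 0.379%, 0.376% and 0.342% of all peaks. For the strongest 1% of peaks of even replicates 1, 2 and 3 the shares were 14.2%, 17.2% and 12.7% with odd lists, against 1.41%, 1.59% and 1.29% of all their peaks, and 1.17%, 1.11% and 0.968% with lacZ lists, against 0.359%, 0.369% and 0.371%. Strong even peaks thus also met lacZ summits more often than all even peaks did, on 10 to 12 peaks per list.

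Within the strongest 0.1% the shares were 46.6% to 60.4% for odd peaks with even lists and 37.6% to 51.6% for even peaks with odd lists. Peaks between the 50th and the 90th percentile gave 0.944% to 1.04% and 1.10% to 1.34%, and those under the 50th 1.11% to 1.41% and 1.21% to 1.51%. The high shares thus belonged to the top of the lists. By number, more coinciding peaks lay under the 50th percentile than in the strongest 1%. The counts were 368 to 743 against 207 to 269 in odd lists, and 642 to 751 against 134 to 158 in even lists. The lists of lacZ replicate 2, with 91111 peaks, and even replicate 2, with 90519, were of like length. A summit within 100 bases of the strongest 1% of odd peaks was found in 0.377% to 0.451% of cases in lacZ replicate 2 and in 24.8% to 36.2% in even replicate 2.

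The strongest lacZ peaks seldom met the summits of either probe set. Of the strongest 1% of peaks of lacZ replicates 1, 2 and 3, 0, 6 and 0 had a summit within 100 bases in at least 2 odd lists, out of 467, 908 and 265 peaks, while of all their peaks 0.721%, 0.762% and 0.761% did. With even lists the counts were 4, 11 and 4, which is 0.857%, 1.21% and 1.51%, against 0.837%, 0.777% and 0.754% of all their peaks. Where a strong odd peak met even peaks at all, the summits usually coincided, in 80.8% to 85.9% of the strongest 1% that overlapped at least 2 even lists. Of those that overlapped at least 2 lacZ lists, 4.17% to 8.33% coincided. That is only 1 of 24, 3 of 36 and 2 of 42 peaks of odd replicates 1, 2 and 3. For strong even peaks the shares of overlaps that coincided were 71.7% to 75.2% with odd and 23.9% to 31.2% with lacZ lists. Strong even peaks coincided least often with odd replicate 1, the shortest odd list, in 5.40% to 6.76% of cases, against 14.8% to 24.5% with odd replicates 2 and 3. Every list was also reduced to its 26460 peaks of highest fold, and the strongest 1% taken from these. The mean over single lists was then 1.47% for strong even peaks with odd lists, close to their 1.17% with lacZ lists, against 14.5% and 1.31% in the full lists. For strong odd peaks with even lists it was 11.9% in the reduced and 27.0% in the full lists.

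**Figure D3:**
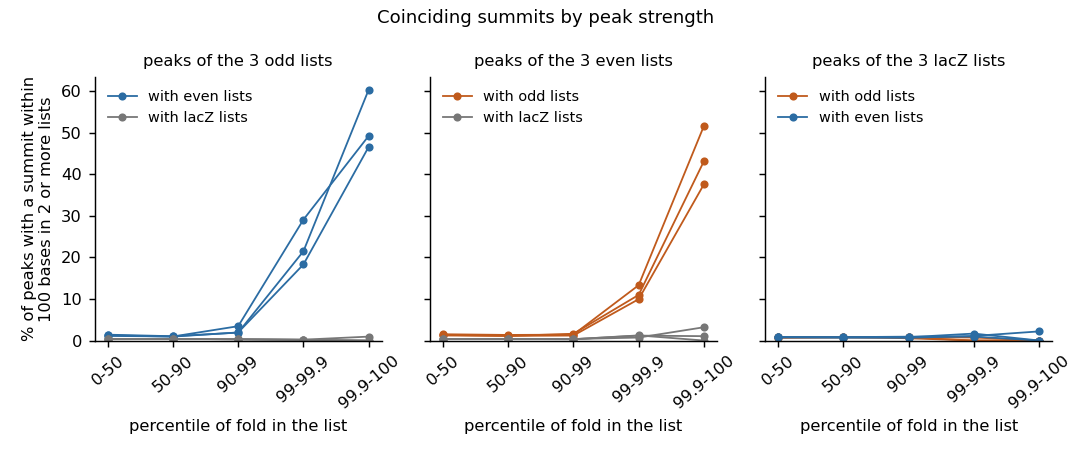
Percentage of the peaks of a list (y axis) with a summit within 100 bases in at least 2 lists of another set, by percentile of fold within the list (x axis), 1 line per list, over all merged regions. Odd and even peaks rise to between 37.6% and 60.4% with each other in the strongest 0.1%, while no line with lacZ lists exceeds 3.20%.

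Odd lists ranked these regions higher than even lists did. The median percentile was 77.3, 72.9 and 73.8 in odd replicates 1, 2 and 3, and 57.9, 59.98 and 66.3 in even replicates 1, 2 and 3. Each median covers only the regions with a peak in that list, so the lists rank partly different regions. There were 994, 1278 and 1271 such regions in odd replicates 1, 2 and 3, and 1188, 1207 and 1245 in even ones. Every odd list lay above every even list, and the mean over replicates was 74.7 ± 2.33 with odd probes and 61.4 ± 4.39 with even probes (SD, n = 3 each). The difference of 13.2 gave an exact permutation p = 0.1, two-sided, which is the smallest that 20 choices allow and does not pass 0.05. Nothing in the labels says that replicates came from separate cultures, so this p measures only the spread between these libraries. For regions with separate summits the difference was 1.01 (exact permutation p = 1). That the first difference is larger than the second was not tested.

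The size and the sign of this difference changed when a list was left out. Leaving out 1 list changes both the choice of regions and the mean of its set. It also leaves the sets unequal in number, so fewer peaks of the smaller set are required. These effects were not told apart. When regions were chosen anew from 5 lists, with at least 4 required, the difference was −4.65 without odd replicate 1 (1798 regions, exact permutation p = 0.2, where 10 choices allow 0.1). It was 5.33 without odd replicate 2 and 4.18 without odd replicate 3 (exact permutation p = 0.6 each), and 18.7 to 24.9 without an even replicate. In the 688 regions with a peak in all 6 lists it was 21.1 (exact permutation p = 0.1). The rule lets a region lack 1 list, and odd replicate 1 was the list lacking in 305 regions. Of the 191 regions with strong even and weak odd peaks, 75 had a peak in odd replicate 1, against 187 and 182 in odd replicates 2 and 3. Among these 688 regions, the 3 odd percentiles all lay above the 3 even ones in 369 (53.6%), against 38.4% of all 2469 regions with a peak in the 6 lists, and all below in 163 (23.7%), against 26.8%.

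Peak length followed the same order. The median peak in these regions was 614, 543 and 544 bases long in odd replicates 1, 2 and 3, and 502, 489 and 516 bases in even replicates 1, 2 and 3. These medians too are over the regions with a peak in each list. All 3 odd values were the higher ones, a log2 difference of 0.17 (exact permutation p = 0.1, two-sided, n = 3 each), and with regions chosen anew it was −0.19, 0.06 and 0.03 without odd replicates 1, 2 and 3. Over all peaks of the lists the median lengths were 394, 362 and 348 bases with odd and 409, 400 and 366 bases with even probes, a log2 difference of −0.09 (exact permutation p = 0.2).

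Against the regions with separate summits, the median percentile was higher by 20.3, 6.53 and 5.42 in odd replicates 1, 2 and 3. In even replicates 1, 2 and 3 the differences were −3.00, 0.90 and −2.37. Each median is over the regions with a peak in that list. In odd replicate 1 these were 76.5% of the regions with close summits and 79.7% of those with separate summits. The share of peaks at the 90th percentile or above was higher in all 6 lists, at 35.5% to 41.2% against 13.2% to 18.3% in odd lists, and 21.96% to 22.9% against 14.8% to 18.0% in even lists. These lists also chose the regions, so no test was made.

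The 20 regions with the highest mean percentile came from 15 chromosomes, and each was present in all 6 probe lists. In 17 of the 20 the mean odd percentile was above the even one. All 3 odd lists were above all 3 even lists in 16, and all 3 even lists were the higher in none. Over the 688 regions with close summits and a peak in all 6 lists these shares were 53.6% and 23.7%. Over all 2469 regions with a peak in the 6 lists they were 38.4% and 26.8%. The same percentiles ranked the 20, so their counts are a description. Positions are on the human build hg19, as in the lists, and folds are the authors' values for a peak in its own list.

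The first in rank was chr8:102063875-102065444. Its fold was 170, 634 and 158 in odd replicates 1, 2 and 3, and 343, 559 and 194 in even replicates 1, 2 and 3. The summit of odd replicate 3 was at base 102064557, and all others fell between base 102064636 and base 102064639. It was among the strongest peaks of every probe list, at a percentile of 99.76 or more in each. RefSeq places the SLEAR gene on chromosome 8 as well; its position there is on another build and was not set against this region. The first region ended at base 102065444, and a further one close beside it, chr8:102066298-102067245, ranked only 720. Its fold was 73.0, 201 and 77.2 in odd lists and 5.57, 7.22 and 8.46 in even lists, the strong odd and weak even pattern seen elsewhere.

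The next in rank, chr1:93611963-93612908, had folds of 227, 524 and 299 in odd and 85.6, 139 and 69.1 in even replicates 1, 2 and 3, with the sets 59 bases apart. On chr18:14444193-14445698 the folds were 153, 520 and 167 in odd and 71.5, 135 and 78.8 in even lists. The fourth, chr13:19188278-19189875, had 212, 466 and 219 in odd and 78.3, 92.1 and 89.7 in even lists. In these 3 regions every odd percentile was above 99.8 and every even one between 96.8 and 98.9.

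The fifth in rank, chr14:68064938-68065845, was high in both sets at closely matched positions. The 6 summits lay between base 68065400 and base 68065408, and the percentiles were 99.1, 99.3 and 99.4 in odd and 97.1, 98.5 and 98.5 in even replicates 1, 2 and 3. On chr20:33403573-33404504, the highest ranked region of its chromosome, the summits lay between base 33404040 and base 33404047. Its folds were 130, 181 and 151 in odd and 56.9, 72.3 and 77.7 in even lists. The mean even percentile was the higher one in 3 of the 20, the first region, chr17:43452803-43453746 and chr2:81002216-81003155. The folds of chr17:43452803-43453746 were 49.2, 190 and 79.0 in odd and 114, 168 and 92.5 in even lists, and the percentiles of the sets overlapped. On chr2:81002216-81003155 they were 39.9, 74.9 and 66.8 in odd and 79.2, 68.0 and 70.9 in even lists, the sets being 96 bases apart and their percentiles overlapping.

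**Figure D4:**
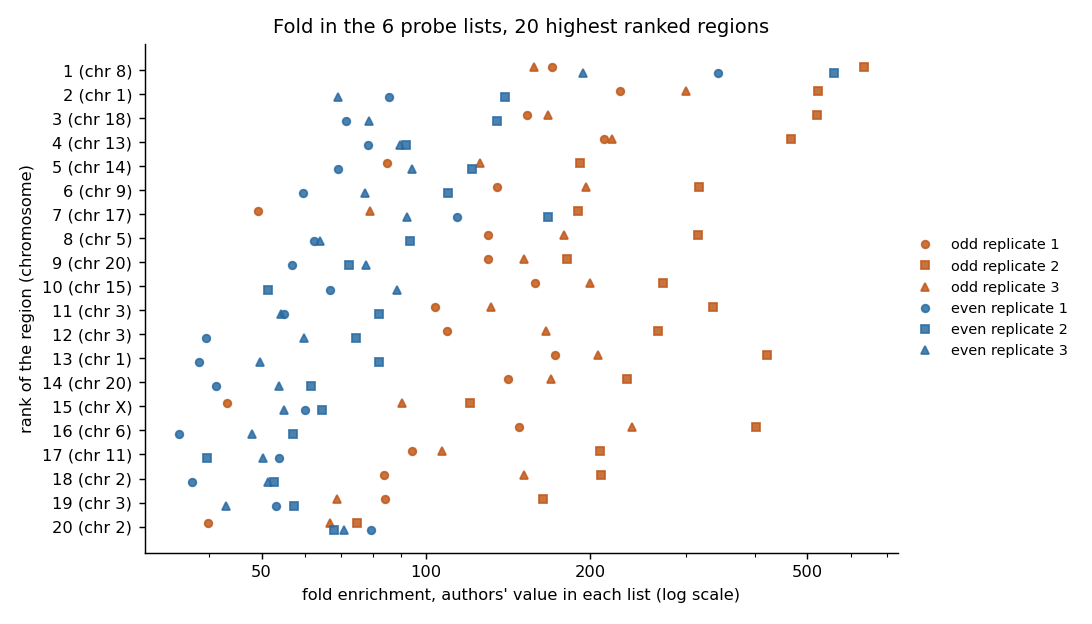
Fold enrichment in each of the 6 probe lists (x axis, log scale, the authors' value per peak) for the 20 regions with the highest mean percentile (y axis, rank and chromosome). Odd values run from 39.9 to 634 and even values from 35.3 to 559, and odd replicate 2 has the highest odd fold in all 20, so folds of different lists are not on one scale.

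The most one-sided regions were picked for the largest difference in mean percentile between the sets. Their weak peaks were among the weakest of their own lists, at percentiles from 0.77 to 7.81. On chr2:123085590-123086501 the fold was 76.9, 290 and 158 in odd replicates 1, 2 and 3, while even replicate 1 had no peak and even replicates 2 and 3 had 3.19 and 3.32. Next came chr5:126185868-126186777, with 107, 220 and 77.6 in odd lists and 3.66 in each of even replicates 1 and 2, and chr13:47125459-47126353, with 102, 168 and 199.5 in odd lists and 3.79 and 4.03 in even replicates 1 and 3. In the other direction, chr19:21108340-21109308 had 5.20 and 3.17 in odd replicates 2 and 3 and none in odd replicate 1, against 139, 292 and 164 in even lists. The fold of chr3:18930358-18931331 was 4.70 and 3.52 in odd replicates 1 and 3, against 246, 307 and 249 in even lists, and that of chr1:31976426-31977342 was 3.90 and 3.74 in odd replicates 1 and 2, against 103, 122 and 62.5 in even lists. Summits of the sets were 9 to 71 bases apart in these 6 regions.

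The limit of 100 bases cut through a continuous range of distances. At exactly 100 bases, the highest ranked region was chr7:34427744-34428413, with folds of 13.6, 36.4 and 25.8 in odd and 7.12, 8.13 and 8.87 in even lists. Just beyond, at 100.5 bases, chr16:26726163-26727212 had 6.57 and 10.7 in odd replicates 2 and 3 and none in odd replicate 1, against 51.1, 61.2 and 70.4 in even lists.

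The regions were spread over the genome, mostly 1 at a time. Of the 1299, 1161 had no other within 100 kb, 66 pairs and 2 groups of 3 did, so that 10.6% had such a neighbour, against 21.5% of the more numerous regions with separate summits. Both groups of 3 held regions with higher percentiles in odd lists and others with higher percentiles in even lists. On chromosome 17, chr17:49415100-49416015 had folds of 80.7, 228 and 124 in odd lists and 6.80 and 6.06 in even replicates 2 and 3. Its neighbour chr17:49426991-49427632 had 8.88, 10.8 and 15.1 in odd and 43.7, 36.8 and 50.7 in even lists, and chr17:49520544-49521475 had 8.81 and 7.87 in odd replicates 2 and 3 and 158, 261 and 163 in even lists. On chromosome 12, chr12:45680914-45682319 and chr12:45800550-45801505 were strong with even probes, at 66.5 to 166 and 138 to 300.0, and weak with odd probes. Between them, chr12:45716601-45717446 was strong with odd probes, at 47.8, 167 and 134, with a mean even percentile of 51.4. The first pair on chromosome 1 was chr1:41088893-41089543, with 9.13, 11.3 and 13.9 in odd and 15.3, 11.6 and 34.0 in even lists, and chr1:41116365-41117234, with 64.7, 120 and 98.0 in odd lists and 5.32 and 4.88 in even replicates 2 and 3.

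Per Mb between the first and the last peak of a chromosome, there were 0.440 regions over the genome, against 0.930 with separate summits. The density was highest on chromosome 21 (0.723 per Mb, 28 regions) and chromosome 20 (0.700, 44 regions), and lowest on X (0.213, 33 regions) and chromosome 9 (0.227, 32 regions). Over the 23 chromosomes it followed the density of all merged regions (Spearman rho 0.56) and of those with separate summits (0.58), as a description over chromosomes that share all 9 libraries. Chromosome 20 also had the highest density of regions with separate summits, 1.83 per Mb, and of merged regions, 151 per Mb. There the close summits made up 27.7% of the shared regions, below the 32.1% of the genome.

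**Figure D5:**
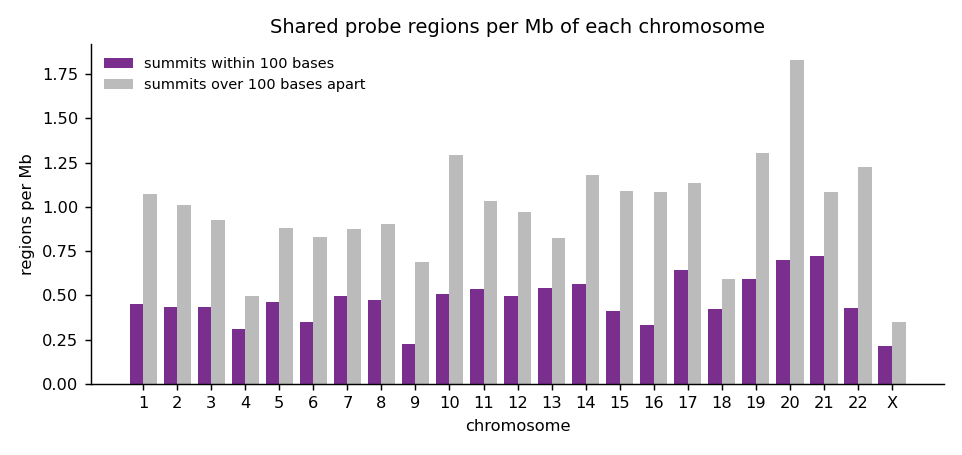
Regions per Mb (y axis) on each chromosome (x axis) with odd and even summits within 100 bases (purple) and over 100 bases apart (grey). The purple bars run from 0.213 on X to 0.723 on chromosome 21, and the tallest grey bar is chromosome 20 at 1.83.

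The surroundings of the regions were like those of other probe regions. A lacZ peak lay within 10 kb of 694 of them (53.4%), against 52.9% with separate summits, 50.2% of 51989 regions in all 3 odd lists alone and 50.6% of 61807 in all 3 even lists alone. It lay within 1 kb in 6.62%, against 6.93% with separate summits. Within 1 Mb of a stretch of at least 1 Mb in which no list had a peak were 14 regions (1.08%), against 1.75% with separate summits and 1.32% of all merged regions. Genes at these positions and the sequence of the regions were not analysed here.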

How the data were processed

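Chromatin that came down with odd, even or lacZ probes was sequenced, and 9 peak lists were used, 3 per set. FastQC, Bowtie2 and the genome build hg19 are named in the submitters' processing notes. Which program called the peaks, with which settings and against which control, is not stated there or in the labels. Peaks were called per sample, per the peak names in the deposited lists. Positions, lengths and summits are in bases, counted from 1, and other columns of the deposited lists hold the pileup signal at the summit, not scaled to depth, the fold enrichment as a ratio, and −log10 of p and q, which were not used. Sequencing depth is unknown, so no interval for it was computed.

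Chromosomes 1 to 22 and X were used. Peaks overlapping by at least 1 base were merged. In each region and list the peak with the highest pileup gave the summit, fold and length, and the percentile is that of its fold within its list. Odd and even lists were compared by exact permutation tests, two-sided, on 1 median per list. A peak of the strongest 1% is at or above the 99th percentile. Regions named are the 20 with the highest mean percentile, the 3 most one-sided in each direction, the highest ranked on chromosomes 8 and 20, the 3 largest groups within 100 kb and the nearest to the limit of 100 bases. The region near the first on chromosome 8 was chosen after its values were seen. The regions, rules and lists were chosen with earlier results of these data known. Python 3.11.15, NumPy 2.4.6, pandas 2.3.3 and SciPy 1.17.1 were used. The code for the rule was checked on simulated lists with planted sites. These had peaks of equal length, none missing, so they do not show how the rule performs on real lists.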

Additional observations from a re-analysis of the deposited data

How the results depend on the processing

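The alternatives for the shares of strong and weak regions, of the strongest 1% of peaks, of lacZ neighbours and of chromosome 20 were chosen after seeing the data. The 1299 regions became 850 and 1970 with limits of 50 and 200 bases, 360 in the part of each list above the median fold, 114 in lists of equal length, 558 with at least 50% of a region covered, 688 with all 6 and 2260 with 4 of 6 lists, and 1300 to 2294 when libraries were left out. Their share of shared regions was then 21.0%, 48.7%, 28.1%, 26.0%, 49.96%, 29.5% (all 6 lists), 18.7% with peaks merged over 500 bases, and 32.1% to 35.4% without libraries. Above the median fold and at equal length, percentiles were ranked anew within the shortened lists. Percentiles there, and shares defined by them, are thus on another scale from those of the full lists. The share strong in one set and weak in the other was 40% and 27.4% at 50 and 200 bases, and 32.2% above the median fold. It was 12.5% with 50% covered, 30.5% in all 6 lists and 33.0% to 39.3% without libraries. The rank correlation was −0.29 at 200 bases, −0.17 above the median fold, −0.011 at equal length and 0.20 with 50% covered.

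The odd minus even difference kept its direction in 22 of 23 alternatives, the exception being without odd replicate 1. The percentile ran from −4.65 to 24.9 and the log2 length from −0.19 to 0.36 without libraries, with exact p = 0.6 and 0.8 without odd replicate 2 or 3. With percentiles ranked anew, the percentile difference was 31.5 above the median fold and 37.3 at equal length, which cannot be set directly against 13.2. At 200 bases it was 7.45 (exact permutation p = 0.2), and the difference in log2 length there was 0.04 (exact permutation p = 0.3). The median difference in percentile from regions with separate summits, 3.16 over the 6 lists, was −1.64 at 200 bases, 14.3 at equal length, −4.60 with 50% covered and −0.97 to 8.19 without libraries, so its sign changed; it was below 0 without odd replicate 1 (−0.39) and without replicate 2 of every set. The strongest 1% of odd peaks coincided with a single even list in 27.0% on average, 19.9% within 50 bases, 16.5% above the median fold and 11.9% at equal length. Even peaks with a single odd list gave 14.5%, and 4.19% and 1.47% in those shorter lists, against 1.31%, 0.875% and 1.17% with a single lacZ list, so at equal length little of that contrast was left; odd peaks with a single lacZ list 0.300%, with 0.844% within 200 bases and 0.116% above the median fold. A lacZ neighbour was found in 30.3% above the median fold, 25.4% at equal length and 31.8% to 54.1% without libraries, lowest where lacZ replicate 2 was left out. Chromosome 20 held 3.39%, and 5.26% at equal length. Shorter lists and stricter rules hold fewer regions by construction, and for the other changes the cause was not tested.

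With a replicate block the differences of 13.2 and 0.17 had an exact p = 0.25, the smallest that 8 arrangements allow. Deviations of same-numbered odd and even lists from their set means correlated at 0.041, 0.068 and 0.16 over 2469 regions, so the numbers were not taken as pairs, although each list correlated best with its own number.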

Other observations

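Sequences outside chromosomes 1 to 22 and X were left out of the comparisons. Among their 1242 merged regions, 9 were shared by odd and even lists without lacZ, and 3 of these had summits within 100 bases. Of 5 shared by odd and lacZ lists without even, 1 did, and of 7 shared by even and lacZ lists without odd, 3 did.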
